A study of Mus musculus with 5 samples.

Results

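Non-cycling pre-neutrophils are here BM cells rich in the messages of neutrophil secondary granules but with little message of the division machinery. Candidates were the cells of 3 whole BM libraries that had at least 200 detected genes and less than 20% of their unique molecular identifiers (UMIs, each standing for 1 captured RNA molecule) from mitochondrial genes. Members were chosen by measured values, and a cell was taken when Ngp and Camp together made up at least 2% of its UMIs, when Mki67 and Top2a together had at most 1 UMI, and when Mpo, Elane, Prtn3 and Ctsg together stayed below 1% of its UMIs. This rule found 5667 members among 21520 kept cells, of which 1448 of 7104 were from naive BM, 906 of 6126 from D2 CTX BM and 3313 of 8290 from D7 CTX BM.

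The libraries were made to follow how BM cells change while myeloid cells grow back after cyclophosphamide (CTX), an alkylating drug used in chemotherapy. All 3 groups were BALB/c mice of 4 to 8 weeks with no genetic change named, and the labels call the cells BM mononuclear cells with CD45+ in the genotype field. The naive group received no drug, and the D2 CTX and D7 CTX groups received CTX at 150 mg/kg into the peritoneum, with BM taken on day 2 or on day 7. Each group was 1 library of the 10x 3′ V3 chemistry, in which dead cells had been depleted and 3 animals contributed the same number of cells, and no barcode can be assigned to an animal. The groups therefore have no replicates, no test between them was possible, and the 95% intervals below (exact Clopper-Pearson for shares, exact Poisson for levels, exact conditional for ratios) cover counting error only.

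Over all barcodes, the counts summed to 47086837 UMIs in naive BM (7649 barcodes), 34764874 in D2 CTX BM (6608 barcodes) and 68459527 in D7 CTX BM (8605 barcodes). Members had a median of 4738.5 UMIs and 1168 genes per cell in naive BM, 4465 UMIs and 1239 genes at D2, and 6938 UMIs and 1382 genes at D7, so the D7 members were the most deeply read. Summed over members, the libraries gave 7228615, 4440703 and 23945091 UMIs. The naive and D2 libraries shared 6 cell barcodes, naive and D7 shared 16, and D2 and D7 shared 13.

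Neutrophils are built in steps in the marrow. Early progenitors make the proteases and peroxidase of azurophil granules, then pre-neutrophils still divide while they switch on the proteins of specific granules, and on leaving the cell cycle they go on to gelatinase granules and to the receptors of circulating neutrophils. The factor C/EBPε, encoded by Cebpe, is needed for the specific granule step, and cathelicidin (Camp), lactoferrin (Ltf), lipocalin 2 (Lcn2) and neutrophilic granule protein (Ngp) are among its products.

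The label was checked on Cebpe and Ltf, which the rule did not use. Cebpe (ENSMUSG00000052435, chr14:54710360-54712174, minus strand) was at 357 counts per 1000000 UMIs (CPM) in naive members, 256 at D2 and 370 at D7. In later neutrophils, defined as cells with Ngp and Camp below 2%, S100a8 and S100a9 of at least 5% and Mmp8 and Retnlg of at least 0.5% of UMIs, Cebpe was at 49.1, 55.03 and 52.98 CPM. Ltf (ENSMUSG00000032496, chr9:111019271-111042767, plus strand) was at 10568, 10392 and 10345 CPM in members against 326, 755 and 682 CPM in later neutrophils. Both markers thus stood several times above the later cells in all 3 libraries. Cycling counterparts, which met the same rule except for 2 or more UMIs of Mki67 and Top2a, had more Cebpe than members at each time, with 578, 604 and 630.5 CPM, and 7009, 11044 and 7393 CPM of Ltf, at D2 more than members held, so neither marker was higher in members than in cycling cells at all 3 times. Mmp8, a gelatinase granule gene outside the rule, helped to define later neutrophils. Its log2 ratio of members over later neutrophils was −0.38, 0.08 and −0.69, so at D2 it did not set members below later cells.

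The genes that chose the members are given as a description. Ngp (chr9:110419747-110423012, plus strand) was at 42406.5 CPM in naive members, 30359 at D2 and 40442 at D7, and Camp (chr9:109847379-109849617, minus strand) at 45154, 23244 and 40878 CPM. B lineage cells, with at least 5 UMIs of Cd79a and Cd79b, held 263, 386 and 314 CPM of Ngp. Coordinates are those of GENCODE M21 on GRCm38, and all genes given with them are protein coding.

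With the 3 libraries summed, the genes that stood highest in members over the other kept cells were Ifitm6 at a log2 ratio of 2.76, Trp53inp2 at 2.69, Chil5 at 2.68, F730016J06Rik at 2.65, Krt83 at 2.44, Ly6g and 1700047M11Rik at 2.42 each, AA467197 at 2.27, Tmem45a2 at 2.24 and Ltf at 2.20. Ly6g encodes the surface protein by which mouse neutrophils are stained, and it was at 2183, 2363 and 2752 CPM in members against 1198, 1354 and 1812 CPM in later neutrophils. Ly6g was at 725, 1163 and 1030 CPM in cycling counterparts. Tmem45a2 was further from later neutrophils and closer to cycling counterparts, at 90.5, 52.7 and 42.7 CPM in members, 52.6, 47.7 and 27.8 CPM in cycling counterparts, and 0.622, 5.14 and 1.47 CPM in later neutrophils. The order rests on pooled libraries, in which D7 gave most of the member UMIs. 1700047M11Rik was at 205, 175 and 144 CPM in members and 170, 129 and 153 CPM in later neutrophils. At D7 it was thus not higher in members than in later neutrophils.

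Cells lay near each limit of the rule. Between 2% and 2.5% of UMIs from Ngp and Camp, just inside the limit, lay 70 naive, 106 D2 and 111 D7 members, and between 1.5% and 2%, just outside, lay 68, 157 and 147 cells that met the other conditions. Median Mmp8 and Retnlg content was 3.58%, 2.88% and 3.74% of UMIs just inside and 4.12%, 3.38% and 4.18% just outside. A single UMI of Mki67 or Top2a was held by 147, 52 and 298 members, and 41, 4 and 157 cells with 2 UMIs fell outside. The azurophil limit touched almost no cell, with 5, 0 and 15 members between 0.5% and 1% and 2, 0 and 14 cells just above it.

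The word non-cycling was checked with 42 S phase genes, among them Mcm5, Pcna and Tyms of the replication machinery, none of which the rule used. Each cell was thinned at random to 2000 UMIs, and cells with at least 3 S phase UMIs were counted, which left out 65 naive, 22 D2 and 23 D7 members of lower depth. Such cells made up 4.19% (3.20 to 5.39; 58 of 1383) of naive members, 1.81% (1.04 to 2.92; 16 of 884) of D2 members and 4.22% (3.56 to 4.97; 139 of 3290) of D7 members. Cycling counterparts reached 64.2%, 51.1% and 62.0%. Later neutrophils stood at 4.75%, 4.38% and 3.44%, after 352 of 1152, 631 of 1612 and 78 of 1473 cells of lower depth had been left out. At 1000 UMIs, where fewer cells are lost, members were at 1.89%, 0.335% and 2.18% and later neutrophils at 2.41%, 1.52% and 0.961%, so members were above later cells at D7 and below them at D2. Without thinning, the member shares were 17.7%, 15.3% and 22.1%.

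The remaining S phase message was unevenly spread among members. In members with less than 0.1% of UMIs from Mmp8 and Retnlg, the least advanced along granule formation, 9.55% of naive cells (36 of 377), 12.5% of D2 cells (2 of 16; 1.55 to 38.3) and 11.5% of D7 cells (101 of 876) had at least 3 S phase UMIs. In members with at least 1% the shares were 2.31%, 1.31% and 1.37%. The summed S phase list was at 385, 276 and 324 CPM in members and at 2469, 1714 and 2161 CPM in cycling counterparts, log2 differences of −2.68, −2.63 and −2.74.

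**Figure D1:**
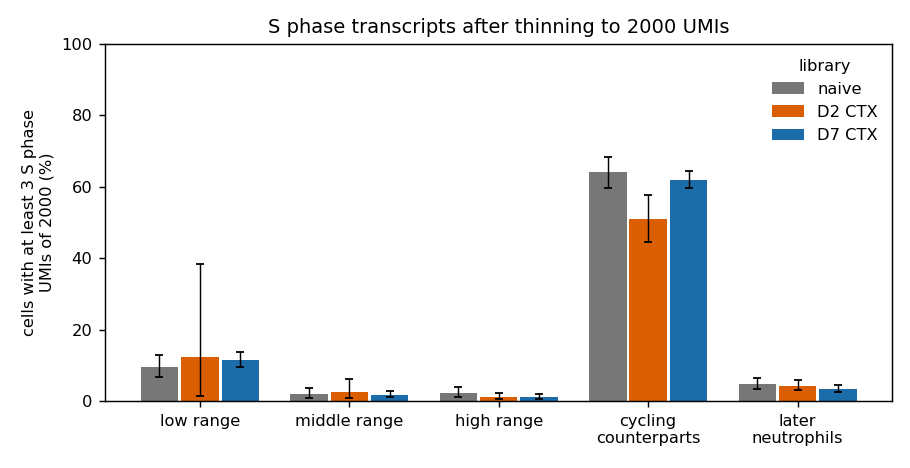
Bars give the percentage of cells with at least 3 UMIs of the 42 S phase genes after thinning each cell to 2000 UMIs, in the 3 ranges of Mmp8 and Retnlg content of members, in cycling counterparts and in later neutrophils of each library, with exact Clopper-Pearson 95% intervals as error bars. Members with at least 1% of Mmp8 and Retnlg stand at 2.31% or lower, and cycling counterparts at 51.1% or higher.

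Genes of G2 and M phase gave a weaker separation at their ends. With Mki67, Top2a and Hmgb2 set aside, at least 3 UMIs of the list of 52 genes were found in 24.2%, 33.0% and 16.0% of thinned members, in 92.7%, 98.3% and 93.2% of cycling counterparts, and in 35.4%, 42.2% and 19.9% of later neutrophils. Members therefore carried no more of this message than later neutrophils did in the same library.

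Members were 20.4% of kept cells in naive BM (19.5 to 21.3), 14.8% at D2 (13.9 to 15.7) and 40.0% at D7 (38.9 to 41.0). The log2 ratio of the share to naive was −0.46 (−0.58 to −0.34) at D2 and 0.97 (0.88 to 1.06) at D7. Both comparisons use the same naive library. Cycling counterparts were lower at D2 by a larger factor, from 7.26% to 3.85% of kept cells, and were at 19.7% at D7. Azurophil-rich cells, which passed the Ngp and Camp limit but had 1% or more of azurophil messages, were at 0.845%, 0.163% and 2.00%. Later neutrophils were at 16.2%, 26.3% and 17.8%, the one neutrophil class of these that was higher at D2 than in naive BM.

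These shares depend on what the cells are divided by. B lineage cells were 27.9% of kept cells in naive BM, 27.3% at D2 and 2.39% at D7, which changes the denominator at D7. Among cells of the neutrophil classes alone, members were 45.6%, 32.8% and 50.3%, with log2 ratios of −0.48 at D2 and 0.14 (0.05 to 0.23) at D7. Among cells that passed the Ngp and Camp limit, they were 71.5%, 78.6% and 64.8%, and both ratios then had the opposite sign, 0.14 at D2 and −0.14 at D7. Granule-positive cells thus held fewer cycling cells per member at D2 than in naive BM, and more at D7.

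**Figure D2:**
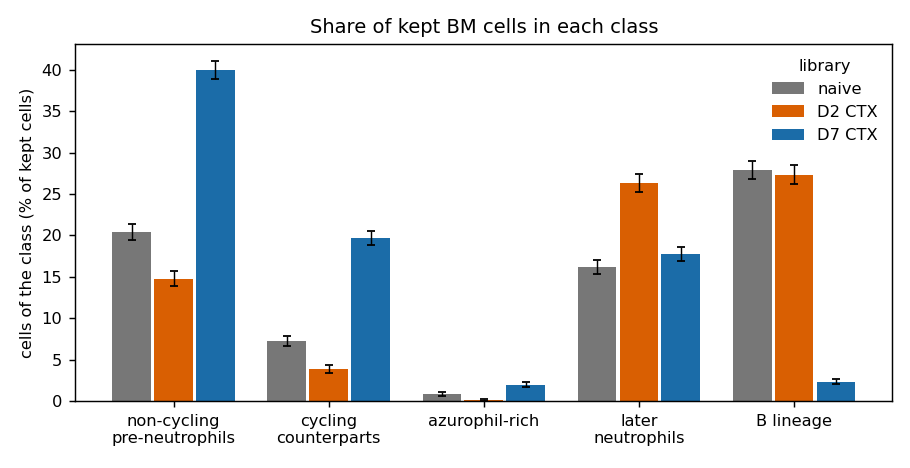
Bars give the percentage of kept cells that were members, cycling counterparts, azurophil-rich cells, later neutrophils and B lineage cells in naive, D2 CTX and D7 CTX BM, with exact Clopper-Pearson 95% intervals as error bars. Members stand at 20.4%, 14.8% and 40.0%, and B lineage cells at 2.39% at D7.

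Members were then placed along maturation by Mmp8, the neutrophil collagenase (chr9:7558456-7568485, plus strand), and Retnlg, a resistin-like protein of maturing neutrophils (chr16:48872621-48874496, plus strand). The rule did not use either gene. Median Mmp8 and Retnlg content was 0.577% of UMIs in naive members, 1.98% at D2 and 0.571% at D7, so only the D2 members were shifted. Median Ngp and Camp content, on which the rule was set, was 8.31%, 4.56% and 7.95% and is given as a description. S100a8 and S100a9, the calprotectin subunits, made up 38.8%, 34.3% and 41.3%.

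The cells were divided into a low range below 0.1%, a middle range from 0.1% to below 1% and a high range of at least 1%. These are ranges and not cell types, and 99 naive, 103 D2 and 285 D7 members lay between 0.8% and 1.2%, near the upper limit. Naive members were 402 low, 462 middle and 584 high, D2 members 17, 184 and 705, and D7 members 881, 1105 and 1327. The high range thus held 40.3% (37.8 to 42.9) of naive, 77.8% (74.97 to 80.5) of D2 and 40.1% (38.4 to 41.7) of D7 members, while the low range held 27.8%, 1.88% (1.10 to 2.99) and 26.6%. The name pre-neutrophil therefore also covers cells with messages of later steps, and at D2 these were most of the members.

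Counted among all kept cells, the low range was at 5.66% in naive BM, 0.278% at D2 and 10.6% at D7, and the high range at 8.22%, 11.5% and 16.0%. The D2 log2 ratios to naive were −4.35 (−5.14 to −3.65) for the low, −1.11 (−1.37 to −0.86) for the middle and 0.49 (0.33 to 0.65) for the high range. Early members were thus the ones that were scarce at D2, and high-range members were a larger share of BM than in naive mice. At D7 all ranges were higher by similar factors, 0.91 (0.74 to 1.08), 1.04 (0.88 to 1.195) and 0.96 (0.82 to 1.10). B lineage cells, which should lack both genes, held more of them at D2. Retnlg was detected in 20.2%, 56.6% and 14.2% and Mmp8 in 3.04%, 12.9% and 2.73% of thinned B lineage cells, and together they made up 0.0497%, 0.189% and 0.0562% of B lineage UMIs, which at D2 is above the lower limit of 0.1%. With that level subtracted from each member, an alternative added after the data were seen, the low range held 30.9%, 4.42% (3.17 to 5.96) and 32.5% of members and the high range 39.7%, 73.1% (70.1 to 75.9) and 39.2%. The D2 log2 ratio of the low range among kept cells was then −3.27 (−3.78 to −2.80), and that of the high range 0.42 (0.25 to 0.58). Mmp8 alone was detected in 74.3%, 96.7% and 67.5% of thinned members. The D2 shift was thus smaller after subtraction and kept its direction.

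Depth went along with the range, with median UMIs of 6171, 5024 and 3830.5 in naive BM, 9260, 5356.5 and 4271 at D2, and 8139, 7074 and 6161 at D7 from low to high.

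**Figure D3:**
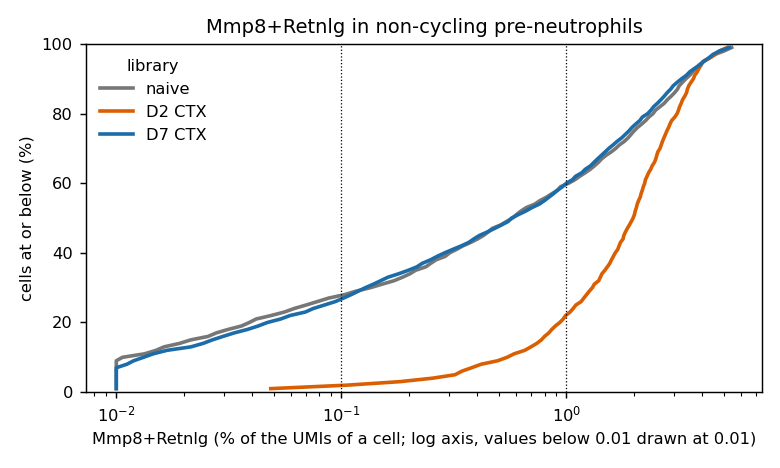
Curves give the cumulative percentage of members at or below each Mmp8 and Retnlg content, as a percentage of a cell's UMIs on a log axis with values below 0.01 drawn at 0.01, and dotted lines mark the limits of the ranges at 0.1 and 1. The naive and D7 CTX curves run close to each other, and the D2 CTX curve lies to the right of both, with 1.88% of cells below 0.1.

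For the comparisons of genes, the UMIs of all members of a library were summed and scaled to CPM, and genes with 200 or more UMIs over a pair of libraries and 20 CPM or more in either were compared. A gene was counted as higher or lower when it differed by at least 1 log2 unit, with 1 CPM added to each level, whereas the ratios printed for single genes are those of the counts unless said otherwise, so a low gene printed just past 1 can miss the limit. The median gene itself differed from naive on this scale, by 0.28 at D2 and by −0.20 at D7. Log2 ratios below are given relative to that median gene unless the CPM scale is named, so the median over all genes compared is 0.

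At D2, 3860 genes were compared in members. On the CPM scale 207 (5.36%) were higher and 50 (1.3%) lower, so 80.5% of the differing genes were higher. Relative to the median gene 73 (1.89%) were higher and 151 (3.91%) lower, and higher genes were 32.6% of the total. Since most D2 members lay in the high range, the same comparison was made among high-range cells only. There 2447 genes were compared, with 36 (1.47%) higher and 6 (0.245%) lower on the CPM scale and 13 (0.531%) in each direction relative to the median gene. A smaller share of genes thus differed between high-range cells than between all members, but fewer genes passed the filter there. The shares rest on unlike sets of genes, and the same genes were not compared.

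A few specific granule genes were lower at D2. Of the 14 genes listed, all of which passed the filter, Ngp and Camp belong to the rule. Among the other 12, Fcnb, Orm1 and Chil3 were lower and none was higher relative to the median gene, where 3.91% of all genes compared were lower, with a median of −0.26. On the CPM scale Fcnb and Orm1 alone passed the limit, beside 1.3% of all genes. Fcnb (ENSMUSG00000026835, chr2:28076378-28084885, minus strand), which encodes the lectin ficolin B, was at 136 CPM in naive members, 12.6 at D2 and 157 at D7, with a D2 log2 ratio of −3.72 (−4.13 to −3.33). It is a message of early members, at 351, 38.4 and 3.81 CPM in the low, middle and high range of naive BM and at 232, 18.4 and 0.624 CPM at D2. Within the low range the D2 ratio was −0.74 (−1.28 to −0.25), a smaller difference than over all members.

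Chil3 and Orm1 were also lower over all D2 members, but not in every range. Chil3, a chitinase-like protein, was at 1303, 789 and 1368 CPM in naive, D2 and D7 members and from low to high range at 2334, 1166 and 337 CPM in naive and 3635, 1597 and 384 CPM in D2 BM, so on the CPM scale it was higher at D2 within each range. Orm1, an acute-phase glycoprotein, was at 119, 31.5 and 151 CPM, and from low to high range at 258, 74.8 and 14.8 CPM in naive and 191, 80.8 and 7.49 CPM in D2 BM. Cebpe was at 479, 363 and 219 CPM across the ranges in naive BM, 738, 373 and 194 CPM at D2 and 556, 389 and 196.5 CPM at D7, so in the low range it was not lower at D2 than in naive BM. Ltf and Lcn2 had ratios of −0.31 and −0.41 over all members.

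Azurophil messages were among the lowest at D2, but the rule itself had limited 4 of them. Elane, neutrophil elastase, was at 96.7 CPM in naive members, 6.31 at D2 (28 UMIs) and 78.1 at D7, Prtn3, proteinase 3, at 106, 13.1 and 109 CPM, Ctsg, cathepsin G, at 31.5, 2.25 and 34.5 CPM, and Mpo, myeloperoxidase, at 71.0, 18.7 and 54.5 CPM. Elane did not decline along the ranges of naive BM, at 103, 87.1 and 99.0 CPM. B lineage cells held 151, 159 and 38.1 CPM of Elane and 109, 248 and 43.3 CPM of Mpo. In naive and D2 BM this is more than members held. That class was picked by Cd79a and Cd79b among cells below the Ngp and Camp limit. Whether it also held other cells or doublets was not tested, nor was the part of RNA from other cells. Ms4a3, a membrane protein of granulocyte and monocyte progenitors that the rule did not use, was at 36.8, 6.98 and 34.7 CPM in members against 19.3, 45.9 and 4.19 CPM in the B lineage. Srgn, the proteoglycan on which granule proteins are packed, was the listed azurophil gene that was higher at D2, at 141, 377 and 84.7 CPM with a log2 ratio of 1.13 (1.02 to 1.25), while B lineage cells held 594, 549 and 552 CPM. Of the 16 genes of this list 10 passed the filter, and without the 4 that the rule had limited, Srgn was higher and Ms4a3 lower on either scale among 6 genes, with a median of −0.11. Over all genes 5.36% were higher and 1.3% lower on the CPM scale, and 1.89% and 3.91% relative to the median gene.

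Several gelatinase granule and mature neutrophil genes were higher at D2. Mmp25, a membrane-bound metalloproteinase, was at 28.9, 73.6 and 19.7 CPM with a D2 log2 ratio of 1.07, Adam8, a sheddase, at 182, 399 and 119 CPM with 0.85, and Slc11a1, a metal transporter of phagosomes, at 22.8, 56.7 and 15.5 CPM with 1.03, which is 0.99 with 1 CPM added and so short of the limit relative to the median gene. All 7 genes of the gelatinase list passed the filter, with these 3 higher on the CPM scale, where 5.36% of all genes compared were, Mmp25 alone higher relative to the median gene, where 1.89% were, none lower, and a median of 0.70 relative to the median gene. Mmp8 itself was at 1799, 3552 and 1270 CPM, and Mmp9, gelatinase B, at 1293, 2384 and 954 CPM. In the high range the list median was 0.03 and no gene passed the limit in either direction, although that range was drawn with Mmp8.

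All 13 mature neutrophil genes passed the filter, Ifitm1 only through its D2 level. Among the other 12, Il1b, Cxcr2, Csf3r, Fpr1 and Selplg were higher on the CPM scale, beside 5.36% of all genes compared, Il1b and Cxcr2 also relative to the median gene, beside 1.89%, and none was lower on either. Cxcr2, the receptor that draws neutrophils out of the marrow, was at 185, 464 and 132 CPM, with a log2 ratio of 1.04 (0.94 to 1.14) over all members and 0.23 (0.11 to 0.35) in the high range. In thinned cells Cxcr2 was detected in 31.0%, 57.4% and 22.9% of members and in 1.79%, 9.08% and 0.546% of B lineage cells, which should lack it. Csf3r, the receptor of G-CSF, was at 142, 306 and 109 CPM with ratios of 0.83 and 0.27. Fpr1, a receptor for bacterial peptides, was at 73.9, 160 and 65.6 CPM with ratios of 0.83 and −0.09. The middle range gave 0.78, 0.77 and 0.65 for Cxcr2, Csf3r and Fpr1. In the low range Csf3r was at 1.09 (0.45 to 1.67), and the others did not pass the filter there. Only in the high range did the interval of each of these receptors lie below its interval over all members. High-range cells are part of all members and the intervals cover counting error only, so this is no test. Cebpb, a C/EBP factor of emergency granulopoiesis, was at 219, 479 and 240 CPM with ratios of 0.85 and 0.29, and Mxd1, which opposes Myc, at 441, 917 and 282 CPM with ratios of 0.77 and 0.27.

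A smaller set was higher at D2 also among high-range cells. Ly6c1, a surface protein of the Ly6 family, was at 82.6, 321 and 75.3 CPM in members with a log2 ratio of 1.68 (1.54 to 1.82), and at 95.2, 348 and 98.6 CPM in the high range with 1.63 (1.42 to 1.85). B lineage cells also held more of it at D2, at 16.8, 131 and 12.6 CPM. Il1b, the interleukin 1β cytokine, was at 20.3, 79.0 and 14.7 CPM with a ratio of 1.67 (1.39 to 1.96), and at 38.1, 93.9 and 29.2 CPM in the high range with 1.06 (0.72 to 1.42). After thinning, Il1b was detected in 3.69%, 12.8% and 1.85% of members and in 1.73%, 9.37% and 1.09% of B lineage cells, so more cells had it at D2 also in a lineage that should lack it. Ifitm1, an interferon-induced membrane protein, was at 14.1, 96.6 and 33.9 CPM in members whereas B lineage cells held 3.76, 91.0 and 36.3 CPM, so at D2 and D7 the 2 classes were close. In thinned cells at D2, Ifitm1 was detected in 0 of 16 low-range, 8.84% of middle-range and 15.4% of high-range members, in 34.3% of later neutrophils and in 7.89% of B lineage cells, and the part of RNA from other cells was not tested.

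Some targets of p53, the factor that responds to DNA damage, were higher at D2. Ccng1, cyclin G1 (chr11:40748552-40755311, minus strand), was at 23.9 CPM in naive members, 88.1 at D2 and 18.6 at D7, with a D2 log2 ratio of 1.60 (1.33 to 1.86). From low to high range it was at 21.8, 25.6 and 24.5 CPM in naive BM, 287, 150 and 58.0 CPM at D2, and 17.6, 18.2 and 19.8 CPM at D7, so by CPM the ranges were level in naive and D7 BM and graded at D2. In thinned D2 cells Ccng1 was detected in 25% of low-range (4 of 16), 24.3% of middle-range and 9.46% of high-range members. By this measure the low and middle ranges were close. Cycling counterparts were at 14.7, 306 and 16.7 CPM and B lineage cells at 37.7, 146 and 28.4 CPM. Cdkn1a, the cell cycle inhibitor p21, did not pass the filter, with 17 UMIs or 2.35 CPM in naive members, 127 UMIs or 28.6 CPM at D2 and 43 UMIs or 1.796 CPM at D7, and was at 109, 60.6 and 14.0 CPM over the D2 ranges. Bax, which opens mitochondria in apoptosis, was at 24.2, 23.1 and 15.2 CPM over the naive ranges and 157, 71.6 and 24.3 CPM at D2. Trp53inp1, a p53-induced nuclear protein, was at 59.4, 148 and 43.6 CPM over all members, and from low to high range at 32.1, 53.8 and 93.9 CPM in naive and 130, 134 and 154 CPM in D2 BM, so it did not show the gradient of Ccng1. Of 16 p53 targets, 5 passed the filter and Ccng1 and Trp53inp1 were higher, on either scale, with a median of 0.63, where 5.36% of all genes compared were higher on the CPM scale and 1.89% relative to the median gene.

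Among interferon-stimulated genes, Ifi27l2a was at 97.8, 319 and 58.2 CPM in members with a D2 log2 ratio of 1.42 (1.29 to 1.55), and from low to high range at 47.5, 88.9 and 160 CPM in naive and at 895, 493 and 233 CPM in D2 BM, so its order over the ranges was opposite in these libraries. Cycling counterparts were at 21.5, 805 and 20.8 CPM, and B lineage cells at 264, 549 and 89.3 CPM. Isg15, a ubiquitin-like protein, was at 19.6, 57.4 and 12.3 CPM with a ratio of 1.26, Irf7, an interferon regulatory factor, at 17.6, 45.3 and 13.2 CPM with 1.08, and Rtp4, a receptor transporter protein, at 11.9, 44.1 and 9.36 CPM with 1.61. Isg15, Irf7 and Rtp4 passed the filter only through their D2 level, so they enter no count. Of 14 listed genes 3 passed by their naive level, and of these Ifi27l2a alone was past the limit, with 5.36% of all genes higher on the CPM scale and 1.89% relative to the median gene. Unlike Ifi27l2a, Isg15 was lower in cycling counterparts than in members at D2, at 27.1 CPM, as were Irf7 at 12.5 and Rtp4 at 11.04 CPM. In the high range no gene of the list passed the limit relative to the median gene.

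**Figure D4:**
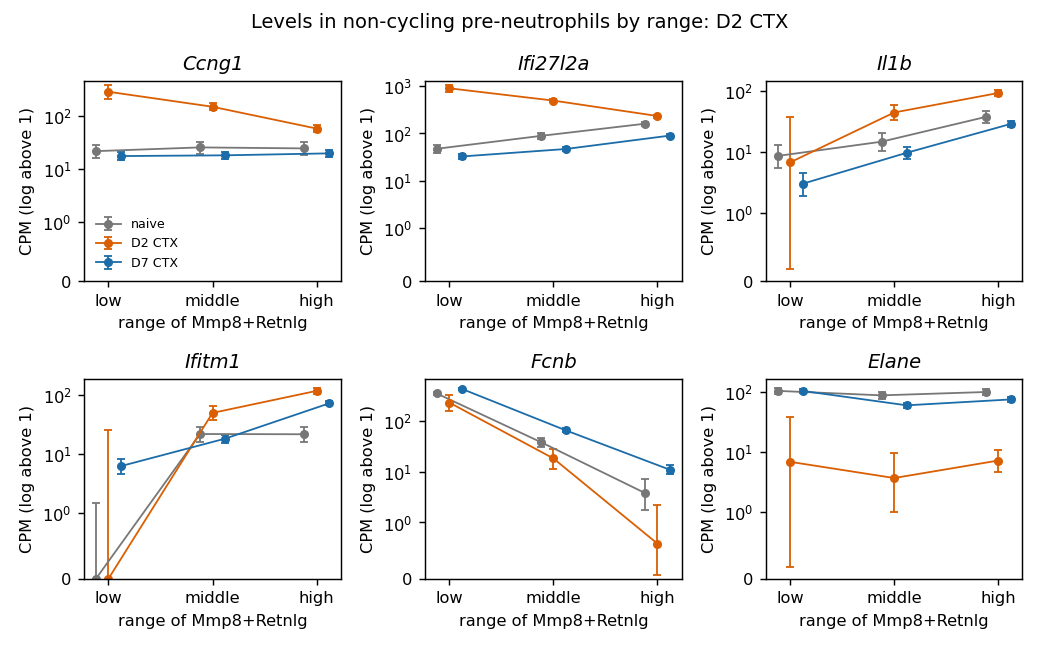
Points give the level in CPM (log axis above 1, linear below) of Ccng1, Ifi27l2a, Il1b, Ifitm1, Fcnb and Elane in members of the low, middle and high range of each library, with exact Poisson 95% intervals as error bars. At D2 CTX, Ccng1 falls from 287 to 58.0 CPM and Ifi27l2a from 895 to 233 CPM from the low to the high range, and Elane is below 10 CPM in each range.

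The remaining extremes of the D2 comparison are given gene by gene. After BC117090, a stefin A gene described below, the highest ratios were Gm10076 at 2.64, Wfdc17 at 2.54, Ifitm1 at 2.49, Clec4d at 1.89, Asprv1 and Mov10 at 1.72 each, Ly6c1 at 1.68, Il1b at 1.67 and the stefin A gene Gm5483 at 1.63. Of these, BC117090, Gm10076, Wfdc17, Ifitm1, Clec4d and Mov10 were below 20 CPM in naive members and passed the filter only through D2, where they are high. Clec4d encodes a C-type lectin receptor for fungal glycolipids and was at 13.7, 61.9 and 9.19 CPM, with a ratio of 1.01 in the high range. Gm10076 was at 14.5, 110 and 20.2 CPM in members against 83.6, 628 and 119 CPM in the B lineage, and Wfdc17, a small secreted WAP-domain protein, at 6.50, 45.9 and 12.9 CPM against 7.62, 38.0 and 6.98 CPM in B lineage cells, so both differed in the same way in another lineage. Beside the granule genes the lowest were Rnaset2a at −2.59, Rpl36al at −2.27 and Mthfsl at −1.81. Rnaset2a, a ribonuclease, was at 40.1, 8.11 and 40.3 CPM in members against 52.8, 9.84 and 45.6 CPM in the B lineage, and Rpl36al, a ribosomal protein, at 68.8, 17.3 and 49.6 CPM against 535, 204 and 498 CPM.

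At D7, 3591 genes were compared. On the CPM scale 14 (0.39%) were higher and 34 (0.947%) lower, so 29.2% of the differing genes were higher, and relative to the median gene 17 (0.473%) were higher and 24 (0.668%) lower, or 41.5% higher. In the high range, 3289 genes were compared, with 17 (0.517%) higher and 40 (1.22%) lower on the CPM scale and 30 (0.912%) higher and 16 (0.486%) lower relative to the median gene. After subtracting the B lineage level from each gene, 107 of 1004 genes differed at D7 and 337 of 1158 at D2. The full B lineage level was removed, including any message that B lineage cells make themselves. Fewer genes were left than the 3591 (D7) and 3860 (D2) compared before. These counts are thus not counts corrected for RNA of other cells.

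Of the 10 highest genes at D7, 6 belonged to the stefin A family, cytosolic inhibitors of cysteine proteases that lie side by side on mouse chromosome 16. Of the 8 genes listed 5 passed the filter by their naive level and all 5 were higher at D7 on either scale, beside 0.473% of all genes compared. BC117090 passed only through its level after CTX. The summed list was at 816 CPM in naive members, 2109 at D2 and 6085 at D7. The copies are near-identical in places, so reads could have been split or moved between them, and the level of each copy is uncertain. Promoters of 4 of the 8 genes were present in the RefSeq table of GRCm38.p6 (Stfa1, Stfa2, Stfa2l1 and Stfa3), and the bases before the start are shown for 2 that were high at D7, beside that of Ltf, a granule gene that was level over the libraries. Capitals mark TTNNGNAA, a core shared by C/EBP sites, or TTTAAA, a run resembling a TATA box, searched on both strands, and the marked matches do not overlap. Stfa2l1 is at chr16:36156661-36156810 on the plus strand, Stfa3 at chr16:36455393-36455542 on the minus strand and Ltf at chr9:111019142-111019291 on the plus strand, each of 150 bases.
Stfa2l1: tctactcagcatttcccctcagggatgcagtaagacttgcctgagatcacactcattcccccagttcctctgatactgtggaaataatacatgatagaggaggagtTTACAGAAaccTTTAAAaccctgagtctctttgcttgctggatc
Stfa3: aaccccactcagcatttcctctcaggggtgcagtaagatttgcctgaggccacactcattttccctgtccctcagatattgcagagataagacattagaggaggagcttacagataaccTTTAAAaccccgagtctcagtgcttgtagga
Ltf: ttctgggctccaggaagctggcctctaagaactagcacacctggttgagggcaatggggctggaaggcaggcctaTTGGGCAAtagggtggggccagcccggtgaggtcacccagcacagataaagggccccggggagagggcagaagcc

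The sequences of Stfa2l1 and Stfa3 end alike, with TTTAAA at −33 in Stfa2l1 and −31 in Stfa3, counted from the RefSeq start. All 4 stefin A promoters held TTTAAA, against 6.75% of 32851 promoters of the same length, 3 of 4 held TTNNGNAA against 22.7%, and none held TTCNNNGAA, the STAT motif, against 4.09%. TTTAAA was chosen for the search after these sequences had been seen. Identity was 86.4% between the Stfa2 and Stfa2l1 promoters and 78.1% between the least similar pair, Stfa2l1 and Stfa1. The Ltf promoter held TTNNGNAA once and no TTTAAA. The window of Stfa1 lies wholly and that of Stfa2 partly within the GENCODE gene, and that of Ltf runs a little past its first GENCODE start. These matches describe the letters in the window only.

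Stfa2 (ENSMUSG00000022902, chr16:36403992-36408457, minus strand) was at 46.3 CPM in naive members (41.5 to 51.6), 141 at D2 (130 to 152) and 786 at D7 (775 to 797), a D7 log2 ratio of 4.29 (4.13 to 4.45). Stfa3 (ENSMUSG00000054905, chr16:36450537-36455392, minus strand) was at 51.9, 188 and 712 CPM, with 3.98 (3.83 to 4.13), and BC100530 (chr16:36359382-36367748, minus strand) at 487, 1026 and 3538 CPM, with 3.06 (3.01 to 3.11). Intervals of the 3 libraries were apart for each of these, in the order naive, D2, D7. Stfa2l1 was at 106, 222 and 461 CPM with a D7 ratio of 2.32, Gm5483 at 120, 452 and 553 CPM with 2.41, and BC117090 at 4.70, 77.0 and 31.5 CPM with 2.95. Among those that passed the filter, BC117090 alone was higher at D2 than at D7, with a D2 ratio of 3.75 (3.24 to 4.30). Stfa1 did not pass the filter, with 2, 16 and 86 UMIs.

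Stefin A messages are late in this sequence of cells, and the D7 levels were above the naive ones in each range. Stfa2 was at 3.57, 10.3 and 128 CPM from low to high range in naive BM and at 103, 574 and 1561 CPM at D7, of which the low-range level at D7 is below the 126 CPM of B lineage cells. BC100530 was at 121, 240 and 1123 CPM in naive and 1079, 3020 and 6095 CPM in D7 BM. In the high range the D7 ratios were 3.81 for Stfa2, 3.52 for Stfa3 and 2.64 for BC100530, and the summed list was at 2005 CPM in naive, 2590 at D2 and 10803 at D7. At D2 the ratios were 1.32, 1.57 and 0.79 over all members and 0.28, 0.50 and −0.11 in the high range. Over all 3 libraries, later neutrophils held more than members, with Stfa2 at 497, 495 and 3247 CPM. In B lineage cells Stfa2 was at 3.67, 34.5 and 126 CPM and BC100530 at 35.4, 102 and 339 CPM, below members as a whole. By thinned cells, Stfa2 was detected in 3.04%, 9.62% and 17.9% of members and 0.417%, 2.89% and 2.73% of B lineage cells, and BC100530 in 22.3%, 40.0% and 46.7% against 1.96%, 9.23% and 9.29%. In the D7 low range Stfa2 was detected in 6.16% and BC100530 in 29.1% of members, above the B lineage shares. For Stfa2 the intervals overlapped, at 4.66 to 7.97 against 0.893 to 6.26.

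Asprv1, a retroviral-like aspartic protease, followed the stefins without belonging to them. It was at 23.8, 95.3 and 210 CPM in members, with log2 ratios of 1.72 (1.46 to 1.98) at D2 and 3.34 (3.12 to 3.57) at D7. In the high range it was at 42.3, 120 and 402 CPM with ratios of 1.26 and 3.45, and B lineage cells held 3.67, 18.3 and 6.05 CPM. Fdps, the farnesyl diphosphate synthase of the mevalonate pathway, was at 11.5, 6.76 and 40.6 CPM with a D7 ratio of 2.02 (1.70 to 2.37), and at 56.7, 40.8 and 26.9 CPM from low to high range at D7 against 15.1, 12.4 and 6.77 CPM in naive BM. Its order over the ranges was thus opposite to that of the stefins in both libraries. Cystm1, a small membrane protein, was at 10.4, 17.1 and 30.9 CPM with a D7 ratio of 1.77 (1.43 to 2.14). Fdps, Cystm1 and Ifitm1 were below 20 CPM in naive members and passed the filter only through D7, where they are high. Ifitm1 completed the 10 highest at 1.47, with the B lineage level given above.

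Thbs1 ranked lowest at D7 with 1 CPM added and with hemoglobin and immunoglobulin genes set apart. Hbb-bs was at −4.07 with the same addition, and Cd79a, described below, at −4.54 by its counts. Thbs1 encodes thrombospondin 1, a secreted glycoprotein that binds matrix and CD47 (ENSMUSG00000040152, chr2:118111876-118127133, plus strand). Members held 278 CPM in naive BM (266 to 291), 665 at D2 (641 to 689) and 17.4 at D7 (15.7 to 19.1), log2 ratios of 0.97 (0.89 to 1.05) at D2 and −3.80 (−3.96 to −3.65) at D7. From low to high range the levels were 101, 332 and 415 CPM in naive, 383, 718.5 and 659 CPM in D2 and 6.24, 21.6 and 22.7 CPM in D7 BM, so D7 was lowest at every step. Later neutrophils gave 176, 351 and 2.94 CPM and cycling counterparts 15.01, 135 and 2.13 CPM. In thinned cells Thbs1 was detected in 35.4% of naive (32.8 to 37.9), 52.0% of D2 (48.7 to 55.4) and 2.71% of D7 members (2.18 to 3.32). B lineage cells showed it in 0.595%, 1.97% and 0 of 183 cells. For the last, the exact Clopper-Pearson interval of the detected share reaches 1.996%.

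Olfm4 was the specific granule gene that differed at D7. It encodes olfactomedin 4, a granule glycoprotein found in a subset of neutrophils, and was at 1075, 1172 and 531.5 CPM in members. The D7 log2 ratio was −0.81 (−0.86 to −0.77) relative to the median gene and −1.02 on the CPM scale, and at D2 its sign changed with the scale, from −0.16 to 0.12. At D7 it was lower in each range, with 448, 517 and 615.5 CPM against 965, 1268 and 1002 CPM in naive BM. In thinned cells Olfm4 was detected in 39.2% of naive and 19.9% of D7 members, and in 1.01% and 1.09% of B lineage cells. Of the 12 specific granule genes that the rule did not use, only Olfm4 passed the limit, and only on the CPM scale. There 0.947% of all genes compared were lower. Relative to the median gene none of the 12 passed, beside 0.668% of all genes lower, and their median was 0.18.

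Immediate early genes, which answer stimulation within minutes, did not differ in 1 direction. Egr1, a zinc finger factor, was at 64.9, 74.1 and 15.7 CPM with a D7 log2 ratio of −1.85 (−2.05 to −1.65), and −2.04 in the high range. Fos, a subunit of AP-1, was at 214, 378 and 83.4 CPM with −1.16 at D7. Jun, the partner of Fos, was at 41.4, 16.7 and 54.9 CPM, with −1.60 at D2 and 0.61 at D7, and Ier2 at 541, 317 and 461 CPM, with −1.06 at D2 and −0.03 at D7. Dusp1, a phosphatase that shuts off MAP kinases, was at 105, 240.5 and 70.2 CPM. Of 12 genes listed 9 passed the filter, and at D7 none was higher and Fos and Egr1 were lower on either scale, beside 0.947% of all genes on the CPM scale and 0.668% relative to the median gene. At D2 Dusp1 was higher and Jun lower on the CPM scale, beside 5.36% and 1.3% of all genes, and Jun and Ier2 were lower relative to the median gene, beside 3.91%. Medians were 0.08 at D2 and −0.03 at D7.

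**Figure D5:**
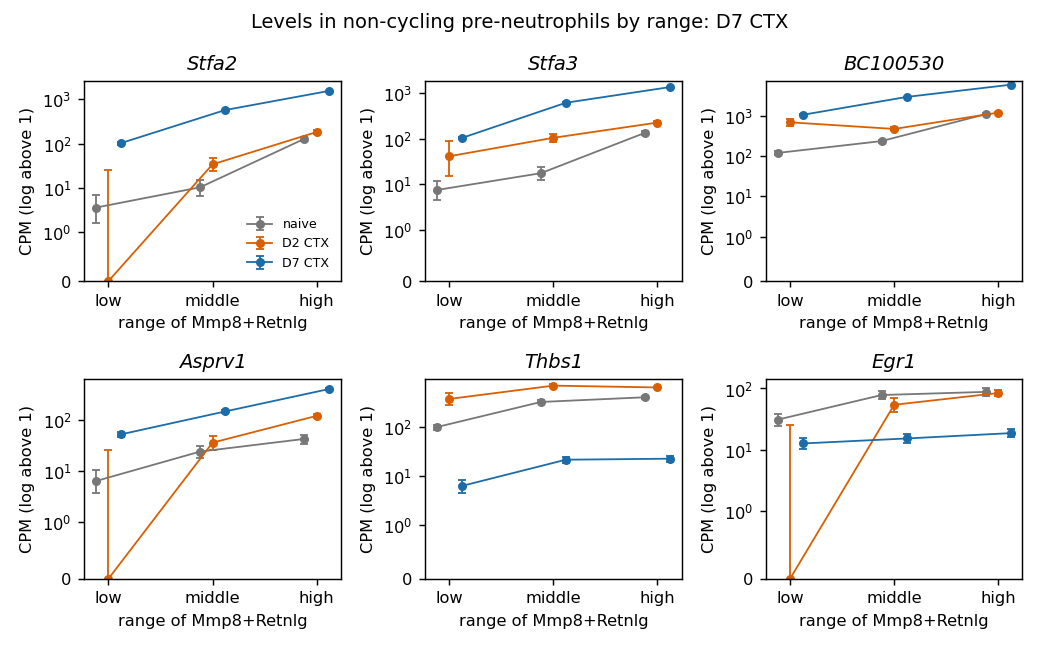
Points give the level in CPM (log axis above 1, linear below) of Stfa2, Stfa3, BC100530, Asprv1, Thbs1 and Egr1 in members of the low, middle and high range of each library, with exact Poisson 95% intervals as error bars. Stfa2 reaches 1561 CPM in the high range at D7 CTX against 128 in naive BM, and Thbs1 stays at or below 22.7 CPM at D7 CTX.

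Several neutrophil lists had few or no genes past the limit. Over all genes compared, 6.66% passed it at D2 and 1.34% at D7 on the CPM scale. Relative to the median gene the shares were 5.8% and 1.14%, so an absence in a short list is near these shares. None of the 6 genes of the NADPH oxidase, which makes superoxide, passed the limit at D2 or D7, with medians of −0.22 and 0.16. The same held for 5 of 7 S100 genes that passed the filter, with medians of −0.37 and 0.33, for 9 of 15 surface and growth factor receptors, with 0.17 and −0.07, and for 7 of 10 heat shock genes. Of 16 transcription factors 10 passed the filter, with Cebpb and Mxd1 higher at D2 on the CPM scale alone, beside 5.36% of all genes, and none at D7. The gelatinase, azurophil, p53 and interferon lists had no gene past the limit at D7, with medians of −0.30, 0.12, −0.12 and −0.24. Beside 1.34% of all genes on the CPM scale and 1.14% relative to the median gene, this absence sets these short lists apart from no others. Cxcr2 at D7 was below naive members in the high range, with a log2 ratio of −0.50 (−0.62 to −0.39), and Mxd1 with −0.60, short of the limit. Only 2 of 9 replication histone genes and 4 of 42 S phase genes passed the filter, and none of these reached the limit. Of 52 G2 and M phase genes 10 passed the filter at D2 and 11 at D7, where Ccnb2 passed only through its D7 level. Only Anp32e, a histone chaperone, passed the limit, at 22.7, 11.7 and 17.3 CPM. Its D2 ratio was −1.24 relative to the median gene, where 3.91% of all genes were lower.

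RNA of other cell types was present in members and differed between libraries. The 5 B lineage markers summed to 266 CPM in naive members, 450 at D2 and 24.3 at D7, with Ighm, the heavy chain of IgM, the most abundant at 118, 283 and 13.7 CPM. At D7 all 5 were lower on either scale, beside 0.947% of all genes on the CPM scale and 0.668% relative to the median gene. Among them were Cd79a at 31.3, 45.9 and 1.17 CPM, Cd79b at 30.0, 37.2 and 2.26 CPM and Ebf1 at 48.6, 44.6 and 4.47 CPM. B lineage cells held 1504, 1770 and 891 CPM of Cd79a. The class II genes Cd74, at 88.3, 89.9 and 10.98 CPM, and H2-Ab1, at 26.7, 14.2 and 2.80 CPM, were also among the 10 lowest at D7, with Vpreb3, H2-Eb1, H2-Aa and Prss34, so 9 of these 10 were genes of B lineage, class II or basophil cells and Thbs1 was the exception. Members with at least 5 UMIs of Cd79a and Cd79b were 32 in naive BM, 26 at D2 and 3 at D7.

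Erythroid markers summed to 534, 1524 and 24.9 CPM, led by Hbb-bs, β-globin, at 285, 974 and 13.8 CPM. Of the 5 listed 4 passed the filter at D7 and all 4 were lower, beside 0.947% of all genes on the CPM scale and 0.668% relative to the median gene. At D2 3 were higher on the CPM scale and 1 relative to the median gene, beside 5.36% and 1.89%. Monocyte markers summed to 553, 519 and 378 CPM, of which Ly6c2 gave 523, 487 and 333 CPM. Macrophage markers summed to 15.8, 19.4 and 3.97 CPM, NK markers to 21.7, 34.2 and 13.3 CPM, eosinophil markers to 22.5, 0.450 and 0.0835 CPM, basophil and mast cell markers to 39.6, 0.450 and 4.05 CPM, plasmacytoid markers to 0.277, 13.5 and 2.71 CPM and megakaryocyte markers to 3.46, 4.05 and 1.29 CPM. The part of other cells in the differences between libraries was not tested.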

How the data were processed

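RNA of single BM cells was measured in 3 whole BM libraries, 1 per condition. The authors deposited raw UMI counts for each pair of gene and barcode, not normalized. The submitters' processing notes name Cell Ranger 3.1, Seurat 5.0 and mm10, and no removal of doublets is stated. The files held fewer barcodes than the cells the study counts. Columns not used numbered 0.

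Cells were kept and classed by the limits in the report, and UMIs were summed per class with Python 3.11.15, numpy 2.4.6, scipy 1.17.1 and pandas 2.3.3, with plots from matplotlib 3.10.9. These steps were tested on simulated data. Genes with at least 200 UMIs over a pair of libraries and at least 20 CPM in either were compared after adding 1 CPM. Where an upper limit is given for a gene found in no cell, it is the upper end of the exact Clopper-Pearson interval. Elsewhere a count of none was taken to allow the share of 3 cells. Named genes are those of the rule, the markers and the lists, the 10 highest and 10 lowest ratios per comparison (immunoglobulin, hemoglobin, mitochondrial and Y genes and Xist apart) and the 10 leading genes over other kept cells. The members and lists were chosen with earlier results of these data known, and the shares of thinned cells with a gene after its values were seen.

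Doublets were kept. The threshold of Scrublet, in scanpy 1.11.5, marked 209, 253 and 2 barcodes in naive, D2 and D7 BM, too few at D7 for that threshold to be used, so the barcodes with the highest scores (0.8% per 1000 barcodes, 468, 349 and 592) were left out as an alternative. They included 91, 53 and 188 members. Other alternatives were stricter filters, other limits of the rule, thinning, no filter on genes, single ranges and subtraction of the B lineage level. The sorted monocytes were used only to count cells that meet the rule.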

Additional observations from a re-analysis of the deposited data

Results flagged for a closer look

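In monocytes sorted from BM as CD11b+Ly6Chi cells, which enter no comparison above, 17 of 1891 kept cells from naive mice (0.899%, 0.525 to 1.44) and 42 of 2564 from mice at D7 after CTX (1.64%, 1.18 to 2.21) met the rule for non-cycling pre-neutrophils, above what a count of 0 would allow. The log2 ratio of the member share to the shared naive library was −0.46 at D2 and 0.97 at D7, in opposite directions, and with 1 library per condition the difference was not tested.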

How the results depend on the processing

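The log2 share ratio at D2 was −0.46 as reported, −0.34 with a filter of 500 or more genes and under 10% mitochondrial UMIs, −0.18 with Ngp and Camp of at least 1%, −0.96 with at least 4%, and 0.14, with the opposite sign, among cells with Ngp and Camp of at least 2%. At D7 it was 0.97 as reported, 1.11 after thinning to 1000 UMIs, 0.14 among neutrophil classes and −0.14 among cells with Ngp and Camp of at least 2%. High-range shares in naive, D2 and D7 members were 45.3%, 83.0% and 44.9% at the 1% limit, 29.4%, 66.2% and 31.7% at 4%, 32.9%, 67.3% and 30.6% after thinning to 1000 UMIs, 73.1% at D2 after subtracting the B lineage level of Mmp8 and Retnlg (added after seeing the data), and at D7 41.9% with 0 UMIs and 38.0% with less than 0.03% of Mki67 and Top2a. S phase shares were 1.89%, 0.335% and 2.18% at 1000 UMIs, 1.52%, 0.226% and 1.82% with at least 5 UMIs, 17.7%, 15.3% and 22.1% unthinned, and 2.84% at D7 with 0 UMIs of Mki67 and Top2a. Genes apart by 1 log2 unit numbered 257 at D2, 915 of 14144 with no filter on genes, and 88, 42 and 42 in the low, middle and high range, where fewer cells left fewer genes compared. At D7 they numbered 48, 289 of 14936 with no filter, 107 of 1004 after subtracting the B lineage level and 24 in the low range. For 42 gene results 428 values were tried, all on the CPM scale. Of these, 409 were counted as the same, 14 fell short of the limit, 4 passed it and 1 was counted as turned. That was Orm1 at D2 in the middle range, with 0.11 on this scale and −0.14 relative to the median gene. Chil3 at D2, lower over all members and higher in each range on this scale, was not counted as turned. The changes concerned Stfa2, Stfa3, BC100530, Thbs1, Camp, Fcnb, Orm1, Chil3, Mmp8 and Cxcr2 at D2 and Olfm4 at D7. Except where fewer cells or genes entered, the cause was not tested.

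No paired analysis was possible because each condition is 1 library, and for the same reason leaving out a replicate was not possible. Differences between mice or between library preparations cannot be told apart from those between conditions. The D2 low range rests on 17 cells, so its levels are loosely fixed.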

Other observations

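Cd3d, a subunit of the T cell receptor complex (chr9:44981786-44987339, plus strand), was detected in members with little of its partners. It was at 330, 299 and 344 CPM in naive, D2 and D7 members, nearly all of the 333, 302 and 346 CPM that the 4 T cell markers summed to, while Cd3g was at 1.94, 2.70 and 2.59 CPM and Cd3e at 0.277, 0.450 and 0. In thinned cells Cd3d was present in 47.8%, 42.9% and 49.0% of members and in 1.07%, 2.11% and 1.64% of B lineage cells. Later neutrophils had it in 46.0%, 31.4% and 38.1% and cycling counterparts in 18.4%, 20.9% and 20.7%, so it was not particular to members. The level was similar in the 3 libraries, although other marker lists differed between them.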
